A study of Arabidopsis thaliana with 12 samples.

Results

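Autoinhibited calcium ATPases (ACAs) are P-type pumps that use ATP to move Ca2+ out of the cytosol, across the plasma membrane or into internal stores such as the vacuole and the endoplasmic reticulum. Most carry an N-terminal domain that holds the pump back until Ca2+-loaded calmodulin binds to it, so a rise of cytosolic Ca2+ switches on its own removal. In plants these pumps end and shape the Ca2+ signals that accompany stress, immunity and growth. During the pumping cycle a conserved aspartate takes up the phosphate of ATP and releases it again.

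The 10 ACA genes of Arabidopsis thaliana were followed in seedlings given H2O2, a treatment the study used to bring H2O2 to cells from outside, as happens when the wave of reactive oxygen species passes through a plant. The members were taken by gene identifier, ACA1, ACA2, ACA4 and ACA7 to ACA13, and 10 of 10 were found among the 20972 genes listed. Wild type Col seedlings 5 days old, grown in liquid MS medium under constant light, received distilled water and were sampled at 0 min, or received 1 mM H2O2 and were frozen 2, 4 or 8 min later. Each of these 4 groups holds 3 libraries from 3 repeats of the experiment, with about 100 to 150 whole seedlings per time point. No water-treated libraries of 2, 4 or 8 min are included, so the effect of H2O2 cannot be told apart from that of the minutes since liquid was added.

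Polyadenylated RNA was sequenced, and between 13558388 and 26618274 reads per library fell on the listed genes, with a median of 16853679. Levels are given as the authors' normalized counts, the reads of a gene divided by 1 size factor per library, and all of these values went back to whole reads. The sampled material was whole seedlings, and markers of green tissue, root and guard cells were found in all 12 libraries. The summed root markers (5 genes) lay between 1395 and 2233 normalized counts the summed guard cell markers (2 genes) between 277.9 and 484.8, and the summed green tissue markers (3 genes) between 251404 and 386309. By limma, 0 of these 10 markers passed the adjusted threshold against 0 min. Of the green tissue markers CAB2, a light-harvesting protein, had libraries wholly below those at 0 min at each H2O2 time point. Its log2 changes were -0.72, -0.55 and -0.54, and 9.24%, 9.50% and 8.23% of all genes lay wholly below. The other 2 green tissue markers, RBCS1A and RCA, had log2 changes above 0 at each H2O2 time point. Both guard cell markers were higher at 8 min at an unadjusted limma p under 0.05, as were 8.03% of all genes. Of 4 pollen markers 1 was analysed here, AGP6, at 1.93 to 8.98 normalized counts.

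The coding stretch around the phosphorylated aspartate is shown for the 10 members, because it is the site that makes them P-type pumps and because near-identical copies would make their reads hard to assign. The sequences are from the RefSeq annotation of TAIR10.1, 5′ to 3′ on the coding strand, and the capitals mark the codon of the aspartate.
ACA1, chr1:9674076-9674120, minus strand: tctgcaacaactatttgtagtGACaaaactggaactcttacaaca
ACA2, chr4:17685215-17685259, minus strand: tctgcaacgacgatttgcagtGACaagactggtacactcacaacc
ACA7, chr2:9767695-9767739, plus strand: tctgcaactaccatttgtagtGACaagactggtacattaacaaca
ACA4, chr2:17334324-17334368, minus strand: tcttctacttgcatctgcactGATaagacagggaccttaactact
ACA11, chr3:21213679-21213723, minus strand: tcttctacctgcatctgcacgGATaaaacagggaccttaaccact
ACA8, chr5:23113787-23113831, minus strand: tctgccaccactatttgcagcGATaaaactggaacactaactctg
ACA9, chr3:7428512-7428556, plus strand: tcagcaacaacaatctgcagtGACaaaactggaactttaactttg
ACA10, chr4:14614853-14614897, minus strand: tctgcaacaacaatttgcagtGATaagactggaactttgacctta
ACA12, chr3:23408834-23408878, minus strand: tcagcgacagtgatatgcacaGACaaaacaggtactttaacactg
ACA13, chr3:8118021-8118065, minus strand: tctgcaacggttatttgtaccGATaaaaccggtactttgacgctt

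These stretches were found by searching each coding sequence in frame, on the coding strand only, for GANAANACNGGNAC, where N is any base. Each ACA coding sequence held 1 match, within 1 exon, and so did 78 of the 27562 coding genes searched, 0.283%, with at least 1. Over the 45 bases the closest pair, ACA4 and ACA11, differed at 4 positions. ACA2 and ACA7 differed at 6, ACA9 and ACA10 at 7, and the most distant pairs at 18. Across the whole transcripts, 0 of the 50-base stretches of any member occurred on the same strand in a transcript of another gene. The members' reads can therefore be told apart wherever a stretch of that length is matched without error.

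The ACA transcripts spanned a wide range of levels, with ACA4 at the top and ACA7 at the bottom. To compare genes, normalized counts were divided by the length in kilobases of the longest annotated transcript of each gene. The results were ranked among the 20858 listed genes with a gene model. Other transcripts of the same gene were not tried as the length. ACA4 averaged 1365 normalized counts per kilobase over the 12 libraries, with a range of 1199 to 1518, and stood at percentile 93.8. ACA10, a pump of the plasma membrane, followed at 806 per kilobase (700.02 to 966.8, percentile 88.8). Every library put ACA4 above ACA10, by 1.69-fold on average.

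ACA8, the close relative of ACA10 at the plasma membrane, averaged 477 normalized counts per kilobase and ACA11, the tonoplast partner of ACA4, 448. The ranges of these neighbours overlapped, and ACA8 was above ACA11 in 8 of 12 libraries, so their order is not separated from the spread. ACA1 came next at 373 per kilobase, with a range that overlapped that of ACA11, although ACA11 was above ACA1 in each of the 12 libraries. ACA2, a pump of the endoplasmic reticulum, averaged 206 per kilobase and was separated from ACA1 in every library.

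The lower part of the order was taken by the genes without introns and by the pumps known from pollen. ACA12 averaged 83.1 normalized counts per kilobase (percentile 37.1), ACA13 23.7 (percentile 17.5) and ACA9 20.4 (percentile 15.7). ACA13 and ACA9 overlapped, with ACA13 above ACA9 in 8 of 12 libraries. ACA7, known from pollen development, averaged 1.06 normalized counts per kilobase and stood at percentile 0.105. Each listed gene had a read in all 12 libraries, so these percentiles do not rank the members among genes with fewer reads.

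**Figure D1:**
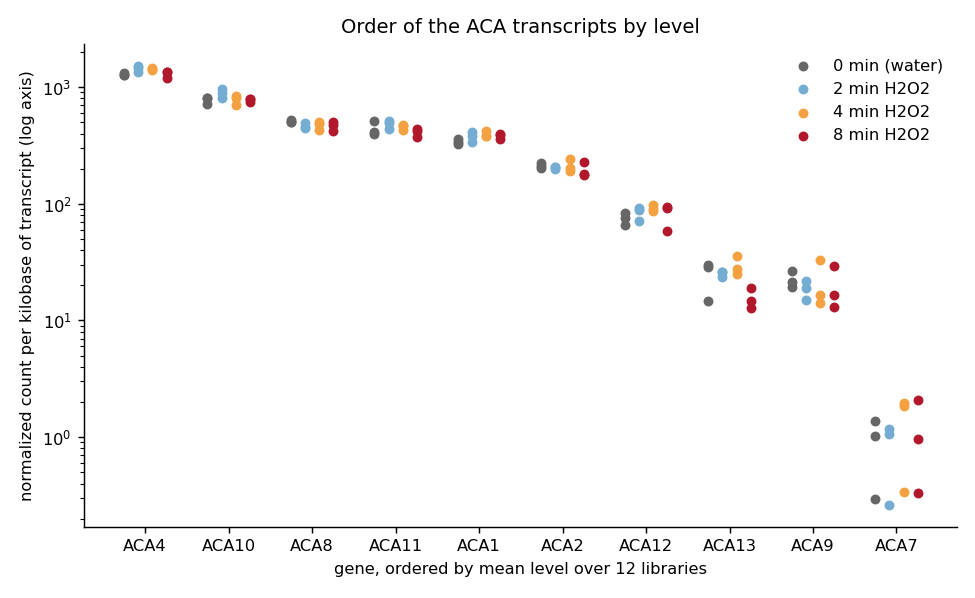
Level of each ACA transcript in the 12 libraries, in normalized counts per kilobase of transcript on a log axis, with genes ordered by their mean and 1 point per library coloured by time point. ACA4 (1199 to 1518) and ACA10 (700.02 to 966.8) stand apart from the other members, the ranges of ACA8 and ACA11 and those of ACA13 and ACA9 overlap, and ACA7 is at or below 2.07 in each library.

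When the per-kilobase levels of the 10 members were summed, the shares of 4 groups of members kept their order over the time course. The tonoplast pumps ACA4 and ACA11 held 46.9% ± 0.724, 48.3% ± 0.409, 48.6% ± 1.16 and 46.9% ± 1.82 of the family at 0, 2, 4 and 8 min (SD, n = 3 each). ACA8, ACA9 and ACA10, pumps of the plasma membrane, held 35.5% ± 1.07, 34.4% ± 0.543, 32.7% ± 1.42 and 34.6% ± 1.24 at the same time points. ACA1, ACA2 and ACA7, which pump into internal membranes or, for ACA7, are the closest relatives of those that do, held between 14.6% and 15.9%. The intronless pair ACA12 and ACA13 was summed apart, without being assigned to a membrane, and held between 2.65% and 3.13%. The share of a whole membrane is therefore not given. The family sum was 3694 ± 131, 3989 ± 217, 3883 ± 187 and 3645 ± 37.8 normalized counts per kilobase in the same order (SD, n = 3 each). The largest shift was that of ACA8, ACA9 and ACA10 at 4 min, and differences between shares were not tested. Shares of transcript give neither the amount nor the activity of the pumps.

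The comparison of each H2O2 time point with 0 min asked whether transcripts for Ca2+ removal change within minutes of H2O2. Changes were tested with limma on log2(normalized count + 1), with the 12 libraries in 1 fit and an adjusted p under 0.05 as the threshold, for the 19485 genes that averaged at least 10 normalized counts. Of the members 9 were tested, and ACA7, with a mean of 3.5 normalized counts, was not. With limma, 0 of the 9 passed at 2 min, 0 at 4 min and 0 at 8 min, where the percentages of all genes past the threshold were 0%, 0.811% and 1.34%. DESeq2 and edgeR, run on the recovered reads, also called 0 of the 9 at each time point. At an unadjusted limma p under 0.05 there was 1 higher member at 2 min (6.36% of all genes were higher by this rule), 1 higher at 4 min (8.60%), and 1 higher and 1 lower at 8 min (8.03% and 5.69%). The moderated F test of limma over the 4 groups called 0 of the 9, and 1.03% of all genes.

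The width of the intervals shows how precisely each change was measured. The intervals are not adjusted for the number of genes tested, so they do not give the size of change that the adjusted threshold could miss. For the 6 most abundant members (ACA1, ACA2, ACA4, ACA8, ACA10 and ACA11) the 95% intervals of the 3 changes against 0 min lay between 0.787-fold and 1.31-fold, with limma standard errors of 0.07 to 0.10 on the log2 scale. For ACA9, ACA12 and ACA13 the intervals reached from 0.456-fold to 1.80-fold, with standard errors of 0.16 to 0.32. At 2, 4 and 8 min the median log2 change of the 9 members was 0.14, 0.05 and -0.09, against 0.00, -0.01 and 0.00 for all genes tested, and 6, 5 and 3 members were above 0. Because the 3 comparisons share the 0 min libraries, these medians are not independent of each other.

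**Figure D2:**
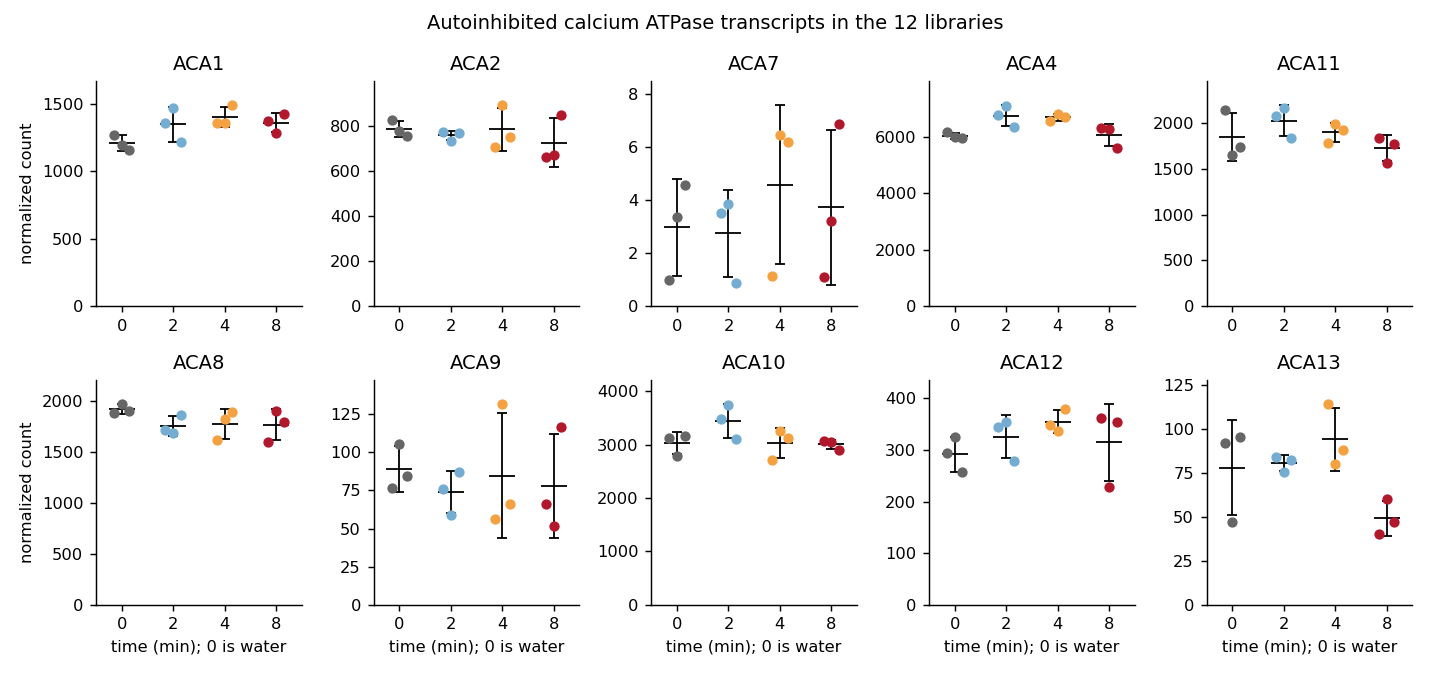
Normalized counts of the 10 ACA transcripts (vertical axes, from 0) by minutes of H2O2 (horizontal axes, where 0 is water), with 1 point per library and the mean ± SD in black (n = 3). ACA1, ACA4 and ACA12 lie wholly above their 0 min libraries at 4 min, as did 10.5% of all genes tested. The mean of ACA13 is lowest at 8 min, where its libraries (40.6 to 60.4) overlap those at 0 min.

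**Figure D3:**
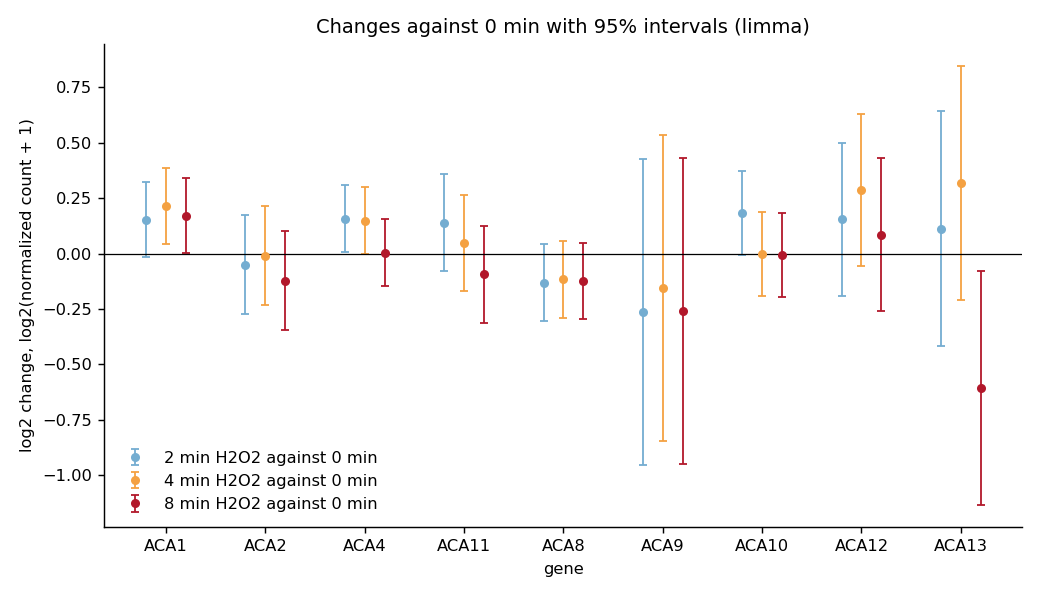
Change of each tested ACA transcript at 2, 4 and 8 min of H2O2 against 0 min on the log2(normalized count + 1) scale, with 95% intervals from limma. Genes are grouped by membrane, with the intronless pair ACA12 and ACA13 set apart at the end. None of the 9 passed the adjusted threshold, and the largest change is that of ACA13 at 8 min (-0.61).

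Among the pumps of internal membranes, ACA1 had means above that of 0 min at each of the 3 H2O2 time points. ACA1 (AT1G27770, chromosome 1 of TAIR10.1 from 9671632 to 9676307, minus strand, 6 exons), described at the plastid envelope and the endoplasmic reticulum, had 1274, 1200.1 and 1156 normalized counts at 0 min, 1358, 1472 and 1217 at 2 min, 1361, 1359 and 1493 at 4 min, and 1374, 1288 and 1426 at 8 min. The libraries at 4 min and at 8 min were all above those at 0 min, while those at 2 min overlapped them. At 4 min the log2 change was 0.21 (95% interval 0.04 to 0.38, limma adjusted p = 0.216), at 8 min 0.17 (0.00 to 0.34, limma adjusted p = 0.363), and at 2 min 0.15. Over all genes tested, the libraries lay wholly above those at 0 min for 10.5% at 4 min and 8.56% at 8 min, so such a separation of 3 from 3 libraries was common in these data.

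ACA2 (AT4G37640, chromosome 4, 17682859 to 17687105, minus strand, 7 exons) is a pump of the endoplasmic reticulum that the kinase CPK1 is known to inhibit by phosphorylation. Its means at 0, 2, 4 and 8 min were 785 ± 34.5, 758 ± 20.3, 784 ± 96.0 and 726 ± 107 normalized counts (SD, n = 3 each). The groups overlapped at each time point, and the log2 changes were -0.05, -0.01 and -0.12. ACA7 (AT2G22950, chromosome 2, 9766058 to 9769957, plus strand, 7 exons), the member closest to ACA2 and needed for normal pollen development, was covered by 1, 3 and 5 reads at 0 min, 3, 3 and 1 at 2 min, 1, 6 and 7 at 4 min, and 1, 5 and 7 at 8 min. Counts this close to the floor of 3 reads do not allow a fold change to be given, and a change of ACA7 was not detectable at this depth.

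ACA4 and ACA11, the pumps of the vacuolar membrane, both had their highest mean at 2 min. ACA4 (AT2G41560, chromosome 2, 17332050 to 17337492, minus strand, 7 exons) had 6179, 5999 and 5977 normalized counts at 0 min, 6798, 7114 and 6363 at 2 min, 6588, 6822 and 6704 at 4 min, and 6326, 6283 and 5619 at 8 min. All libraries at 2 min and at 4 min were above those at 0 min, and those at 8 min were spread around them. Over all genes tested, 9.83% were wholly above at 2 min and 10.5% at 4 min. Its log2 changes were 0.16 at 2 min (95% interval 0.01 to 0.31, limma adjusted p = 0.393), 0.15 at 4 min (0.00 to 0.30, limma adjusted p = 0.331) and 0.00 at 8 min (-0.15 to 0.15, limma adjusted p = 0.988).

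ACA11 (AT3G57330, chromosome 3, 21211014 to 21216836, minus strand, 7 exons) averaged 1844 ± 262, 2024 ± 169, 1897 ± 106 and 1721 ± 141 normalized counts at 0, 2, 4 and 8 min (SD, n = 3 each). Its log2 changes against 0 min were 0.14, 0.05 and -0.09, and the groups overlapped at each time point. Loss of ACA4 and ACA11 together is known to cause leaf lesions that depend on salicylic acid.

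The abundant pumps of the plasma membrane, ACA8 and ACA10, had changes of opposite sign at 2 min, and neither passed the threshold. ACA8 (AT5G57110, chromosome 5, 23109438 to 23117686, minus strand, 35 exons), which is known to associate with the flagellin receptor FLS2, had 1890, 1977 and 1910 normalized counts at 0 min, 1721, 1686 and 1871 at 2 min, 1617, 1826 and 1897 at 4 min, and 1605, 1908 and 1799 at 8 min. It was the only member whose libraries at 2 min were all below those at 0 min, as was the case for 9.24% of all genes, while ACA4 was the only one wholly above, as was the case for 9.83%. At 2 min the log2 change of ACA8 was -0.13 (limma adjusted p = 0.546), and at 4 and 8 min -0.12 each.

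ACA10 (AT4G29900, chromosome 4, 14610883 to 14619685, minus strand, 35 exons), a pump whose loss is known to change the form of the inflorescence, averaged 3023 ± 205, 3439 ± 325, 3025 ± 279.8 and 3005 ± 86.2 normalized counts at 0, 2, 4 and 8 min (SD, n = 3 each). The 2 min libraries, at 3474, 3745 and 3099, overlapped those at 0 min, and the log2 change was 0.18 (95% interval 0.00 to 0.37, limma adjusted p = 0.427). At 4 and 8 min the change was within 0.01 of 0.

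ACA9 (AT3G21180, chromosome 3, 7425476 to 7432365, plus strand, 32 exons), a plasma membrane pump needed for pollen tube growth, had the largest limma standard error of the 9 members tested. It had 76.4, 105.5 and 84.5 normalized counts at 0 min, 75.8, 59.1 and 86.9 at 2 min, 56.1, 132 and 66.0 at 4 min, and 65.8, 51.4 and 117 at 8 min. The highest library at 4 min and the highest at 8 min were above each library at 0 min, and the lowest ones were below. The log2 changes were -0.26, -0.16 and -0.26, each with a standard error of 0.32 and an adjusted p of 0.771 or more.

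The spread of ACA9 between libraries went with the mean of the root markers, and most closely with 1 of them. Across the 12 libraries the correlation of ACA9 with the mean log2 level of 5 root markers (PIN2, SCR, GL2, COBL9 and EXPA7) had Pearson's r = 0.87 and Spearman's rho = 0.92 (permutation p = 0.00024 and 7.0e-05, two-sided, 0.0065 and 0.0019 after adjustment over 27 relations of 9 members with 3 marker lists). Libraries were permuted without regard to time point, and the adjustment does not cover the choice of markers, made with earlier results known. Without the 2 libraries farthest from the median of the markers r was 0.83. Over deviations from the time-point means, which leave out differences between time points, r was 0.94. The single markers differed, with r = 0.96 for COBL9, 0.72 for EXPA7, 0.68 for PIN2, 0.54 for SCR and 0.44 for GL2 over the same 12 libraries, given as a description. COBL9, a COBRA-like gene of root hairs, had 53.9 to 140 normalized counts. Reads of ACA9 were between 0.763 and 1.05 times those of COBL9 in each library (median 0.882), while ACA9 itself ranged from 51.4 to 132. This closeness was noticed after the values were seen. The ratio to SCR, a root endodermis gene, ran from 0.0557 to 0.114, and the ratio to PIN2, a root auxin carrier, from 0.204 to 0.430.

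**Figure D4:**
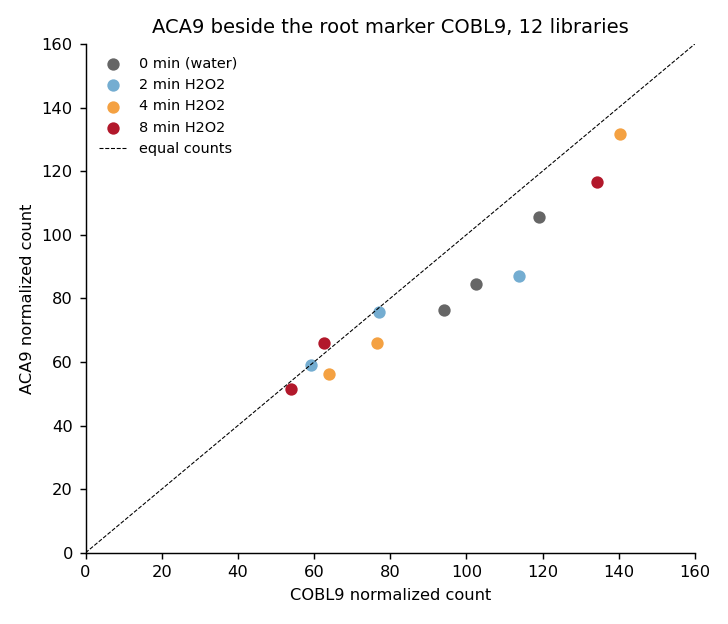
ACA9 (vertical axis) against the root hair gene COBL9 (horizontal axis) in normalized counts, with 1 point per library coloured by time point and a dashed line of equal counts. The points follow a line just under equality (ratios 0.763 to 1.05), and the libraries of each time point are spread along it.

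In these bulk samples, a different share of root cells and a different level of these transcripts per cell cannot be told apart. Neither was tested. At 0, 2, 4 and 8 min the summed root markers were 1879 to 2233, 1709 to 2049, 1634 to 2026 and 1395 to 1994 normalized counts. SCR alone averaged 1045, 1122, 1056 and 1025, against means of 2012, 1864, 1782 and 1706 for the sum. The sum therefore rests mostly on SCR. The median log2 changes of the 5 markers were -0.37, -0.25 and -0.44, with 0 past the threshold by limma. At an unadjusted limma p under 0.05 there were 0 at 2 min, 2 at 4 min and 2 at 8 min, each lower, where 7.02% and 5.69% of all genes were lower at 4 and 8 min. The part of root content in the changes of ACA9 was not tested. ACA2 had the next largest correlation with the root markers, r = 0.74 and rho = 0.78 (permutation p = 0.0058 and 0.0037, adjusted 0.0786 and 0.0494), r = 0.76 without the 2 farthest libraries and r = 0.78 over deviations from the time-point means. ACA4 went the other way with the root markers, with r = -0.73 over these deviations. Over the libraries themselves its r was -0.51 (permutation p = 0.0885, adjusted 0.472).

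ACA12 and ACA13 are pumps of 1 exon each, and their transcripts are known in other settings to respond to pathogens. ACA12 (AT3G63380, chromosome 3, 23406484 to 23410360, minus strand) had 295, 324 and 257 normalized counts at 0 min, 344, 355 and 278 at 2 min, 349, 336 and 380 at 4 min, and 362, 229 and 354 at 8 min. Its libraries at 4 min were all above those at 0 min, with a log2 change of 0.29 (95% interval -0.06 to 0.63, limma adjusted p = 0.412). With ACA1 and ACA4 this made 3 members wholly above 0 min at 4 min and 0 wholly below, where 10.5% and 9.50% of all genes did so. At 8 min only ACA1 was wholly above and 0 members were wholly below, against 8.56% and 8.23% of all genes.

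ACA13 (AT3G22910, chromosome 3, 8116292 to 8119490, minus strand) gave the largest change of the family. It had 92.1, 47.2 and 95.4 normalized counts at 0 min, 84.0, 75.9 and 82.6 at 2 min, 114.5, 80.4 and 88.1 at 4 min, and 40.6, 60.4 and 47.1 at 8 min. The 3 libraries at 8 min were low, and so was 1 library at 0 min, replicate 2, so these groups overlapped. The mean was 49.3 ± 10.1 at 8 min, against 78.2 ± 26.9 at 0 min (SD, n = 3 each), a log2 change of -0.61 (95% interval -1.13 to -0.08) with a limma adjusted p of 0.297. Without replicate 2 at 0 min the change was -0.93 with a limma adjusted p of 0.0382, and with each of the other libraries left out the adjusted p was 0.186 to 0.676. The change stayed below 0 with each library left out (-0.93 to -0.43) and under the other alternatives (-0.65 to -0.57). With all 12 libraries there was no call. Only without replicate 2 at 0 min did ACA13 pass the threshold, while it was lower in each of these fits. At 2 and 4 min its log2 changes were 0.11 and 0.32 (limma adjusted p = 0.902 and 0.557).

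As the member with the lowest adjusted p at 8 min, ACA13 was compared with the other 19484 genes tested by the root mean square difference of the 3 log2 changes against 0 min. The closest were AT5G19800 (0.0993), ERF10 (AT1G03800, 0.121), an ethylene response factor, AT3G09450 (0.143), AT4G27400 (0.155) and AT4G30180 (0.158). Their mean normalized counts were low, 12.5 to 31.0, and 0 of the 5 passed the limma threshold at 8 min (adjusted p from 0.545 to 0.749).

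Between the H2O2 time points no member passed the threshold. For 8 min against 2 min limma called 0 of the 9 and 0.636% of all genes, and DESeq2 and edgeR called 0 of the 9. At an unadjusted limma p under 0.05, 4 members were lower, as were 1.80% of all genes. The same 4 had each library at 8 min below each library at 2 min, as did 5.29% of all genes, and 0 members were wholly above, against 6.26% of all genes.

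The 4 were ACA13, ACA11, ACA10 and ACA4. The mean of ACA13 was 49.3 ± 10.1 at 8 min, against 80.8 ± 4.35 at 2 min (SD, n = 3 each), a log2 change of -0.72 (limma adjusted p = 0.540). ACA11 differed by -0.23 (limma adjusted p = 0.819), ACA10 by -0.19 (limma adjusted p = 0.861) and ACA4 by -0.15 (limma adjusted p = 0.856). Over the 9 members the median was -0.07, with 3 above 0, against a median of 0.00 over all genes tested, of which 48.5% were above 0. ACA1 and ACA8 differed by 0.02 and 0.01, with 95% intervals of -0.15 to 0.19 and -0.17 to 0.18.

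For 8 min against 4 min limma called 0 of the 9 and 0% of all genes, with 1 member and 1.04% of all genes lower at an unadjusted limma p under 0.05, and DESeq2 and edgeR called 0 members. The member was ACA13, at 49.3 ± 10.1 normalized counts at 8 min, against 94.3 ± 17.9 at 4 min (SD, n = 3 each), a log2 change of -0.92 (limma adjusted p = 0.743). The log2 difference was below 0 for each of the 9 members, from -0.92 to -0.0060, with a median of -0.11. Over all genes tested the median was 0.01, and 52.3% were above 0. ACA13 and ACA4 were the 2 members whose libraries at 8 min were all below those at 4 min, as were 2.78% of all genes, and 0 members were wholly above (3.88% of all genes). For 4 min against 2 min limma, DESeq2 and edgeR called 0 of the 9 (limma called 0.0821% of all genes), 0 members were at an unadjusted limma p under 0.05 against 3.10% of all genes, and the groups overlapped for each member, where 5.13% of all genes were wholly above and 4.10% wholly below.

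Other genes of Ca2+ removal and of the control of ACA pumps gave no call either. Among the 4 ECA pumps, which move Ca2+ and Mn2+ into the endoplasmic reticulum and Golgi without a calmodulin-binding domain, 0 passed the limma threshold at 2, 4 or 8 min, and the medians of the log2 changes were 0.01, -0.08 and -0.12. The largest change at 8 min was that of ECA2, with 460.03 ± 28.2 normalized counts at 8 min, against 391 ± 46.0 at 0 min (SD, n = 3 each), a log2 change of 0.24 (limma adjusted p = 0.262). It was the 1 ECA pump at an unadjusted limma p under 0.05 at 8 min, when 8.03% of all genes were higher by this rule, and there was none at 2 or 4 min.

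The CAX exchangers move Ca2+ into the vacuole in exchange for protons, and 5 of the 6 were tested, CAX6 being not analysed here. With limma 0 of the 5 passed at any of the 3 time points, 0 were at an unadjusted p under 0.05, and the medians were 0.00, 0.07 and -0.01. CAX3 had the largest change at 8 min, -0.15 (limma adjusted p = 0.764). For the 7 calmodulins, the Ca2+ sensors that release the ACA pumps from autoinhibition, limma called 0 and 0 were at an unadjusted p under 0.05, with medians of -0.09, -0.09 and -0.07. CAM1 changed most at 8 min, by -0.16 (limma adjusted p = 0.442). Of the proteins known to act on ACA pumps, CPK1 and FLS2 were tested and BON1 was not analysed here. Limma called 0 of these 2, with 0 at an unadjusted p under 0.05, and FLS2 changed most at 8 min, by -0.12 (limma adjusted p = 0.815). DESeq2 and edgeR also called 0 genes of these 4 lists at 2, 4 and 8 min.

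Of the members, 4 overlap a gene on the opposite strand, ACA1 by only 26 bases (AT1G27760), which is shorter than the stretches counted here, and ACA9, ACA10 and ACA11 by more. The libraries keep strand, and whether the counting used it is not given in the sources used here. Of the 50-base stretches in the ACA11 transcript, 383 of 4131 also lie in AT3G57320, a gene with a mean of 193 normalized counts and a log2 change of 0.04 at 8 min. For ACA9 the number was 124 of 3930, shared with AT3G21190 (mean 226 normalized counts, above the 81.3 of ACA9), whose log2 changes were -0.11, 0.00 and 0.14. For ACA10, 67 of 3825 lay in AT4G29890 and 165 in AT4G08255, the second of which was not analysed here. ACA10 also overlaps AT4G08245 by 1006 bases, with 0 shared stretches, and AT4G08245 was not analysed here either. The part of such reads in the values was not tested.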

How the data were processed

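RNA was sequenced from 12 seedling libraries in 4 groups of 3 biological replicates. The authors checked reads with FastQC 0.11.7, aligned them to TAIR10 with STAR 2.4.0.1, allowing several mapping locations, and normalized gene counts with DESeq2 1.20.0. The counting program is not given in the sources used here. The deposited signal is reads divided by 1 size factor per library. Each value (100%, tolerance 0.001) was a whole number of reads, and each gene listed had at least 1 read in every library.

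Values were tested as log2(normalized count + 1) with limma 3.58.1 (variance trend, 1 fit, genes with a mean of at least 10, Benjamini-Hochberg adjustment within a comparison, threshold 0.05). Fold changes on this scale understate those of low genes. An exact permutation test of 3 against 3 libraries cannot reach 0.05, so p-values come from models across all genes. Correlation p-values used 100000 permutations over all libraries, without regard to time point. Alternatives were pseudocounts of 0.1 and 5, a minimum mean of 50 or none, a replicate block, quantile normalization, separate fits, each library left out, and DESeq2 1.42.0 and edgeR 4.0.16 on recovered reads.

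The members, the lists of related genes and the markers were chosen with earlier results of these data known. Genes named were the 10 members, list genes past the threshold or with the largest change at 8 min, and the 5 genes most like the member with the lowest adjusted p at 8 min. Gene models and sequences are from RefSeq TAIR10.1, and shared sequence was counted in 50-base stretches. Counting floors cover counting error only. Tests were tried on simulated data. R 4.3.3, Python 3.11.15 and matplotlib 3.10.9 were used.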

Additional observations from a re-analysis of the deposited data

How the results depend on the processing

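The count of ACA genes past the threshold was 0 in the 6 comparisons under the pseudocounts, filters, quantile normalization, replicate block, separate fits, DESeq2 and edgeR. With each library left out in turn it ranged from 0 to 1 for 8 min against 0 min, the 1 being ACA13 without replicate 2 at 0 min, and stayed at 0 in the other comparisons. The adjusted p of ACA13 at 8 min was 0.230 to 0.493 under the other alternatives. Signs are described for 32 log2 changes, those against 0 min and those between H2O2 time points at an unadjusted limma p under 0.05. The other 22 log2 changes, all between H2O2 time points, had 32 sign changes in 462 alternative values and 0 calls. Of 672 alternative values for the 32 described, 26 changed sign, in 10 changes of at most 0.32 in size, none past the threshold. Apart from left-out libraries these were ACA2 at 4 min (0.0021 with edgeR), ACA10 at 4 min (0.0027 with quantile normalization, 0.00068 with DESeq2, 0.0063 with edgeR) and ACA10 at 8 min (0.020 with quantile normalization). With libraries left out the ranges were -0.21 to 0.29 for ACA13 at 2 min. At 4 min they were -0.11 to 0.061 for ACA2, -0.026 to 0.16 for ACA11, -0.52 to 0.085 for ACA9, -0.058 to 0.076 for ACA10 and -0.0069 to 0.49 for ACA13. At 8 min they were -0.026 to 0.059 for ACA4, -0.17 to 0.019 for ACA11, -0.065 to 0.024 for ACA10 and -0.031 to 0.30 for ACA12. The cause of these sign changes was not tested.

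Among all genes, calls at 2 min against 0 min were 0 with limma, 7 with the replicate block, 54 with a separate fit and 103 with DESeq2. At 4 min they were 158, against 431 with the block and 496 with DESeq2, and at 8 min 261, against 151 with a separate fit and 452 with DESeq2. For 4 min against 2 min they were 16, against 0 with a separate fit and 39 with DESeq2. For 8 min against 4 min they were 0, against 2 with a pseudocount of 5, 8 with the block, 33 with DESeq2 and 2 with edgeR. With libraries left out the ranges were 0 to 8, 41 to 372 and 151 to 324 against 0 min, 0 to 22 for 4 against 2 min, 65 to 127 for 8 against 2 min and 0 to 6 for 8 against 4 min.

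The replicate number was not shown to pair the libraries. Correlations of the deviations of same-numbered libraries ran from -0.328 to 0.255, and those of different-numbered libraries from -0.345 to 0.465. Among the same-numbered ones, only between 2 and 8 min was each above 0.1 (0.216 to 0.255). For 8 min against 2 min the block gave 140 calls, against 124 without it. Against 0 min it gave 7, 431 and 364 calls at 2, 4 and 8 min, where the fit without it gave 0, 158 and 261. The block changed no call of an ACA gene. The depth limits ACA7, which had 7 reads or fewer in each library, and the intervals of ACA9, ACA12 and ACA13 are wide.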

Other observations

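By r over the 12 libraries, the largest of the 27 relations between 9 ACA genes and 3 marker lists were ACA9 and ACA2 with root markers. Next in size was ACA1 with the 2 guard cell genes KAT1, a potassium channel, and FAMA, a stomatal transcription factor. Over 12 libraries r was 0.70 and rho 0.69 (permutation p = 0.011 and 0.016, adjusted 0.101 and 0.141), r was 0.88 without the 2 farthest libraries, and r was 0.56 over deviations from the time-point means. The summed guard cell markers were 277.9 to 361 normalized counts at 0 min, 320 to 428 at 2 min, 336 to 412 at 4 min and 364 to 485 at 8 min. Their part in the changes of ACA1 was not tested.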
